A study of Mus musculus with 6 samples.

Results

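The Runx and osteoblast genes are 9 mouse genes, Runx1, Runx2, Runx3, Cbfb, Sp7, Alpl, Spp1, Ibsp and Dlx5, out of 22223 protein-coding genes of the mm9 annotation. They were taken by name, and the locus of each was its gene body plus 100 kb on either side. Runx proteins bind DNA at the letters TGTGGT or TGCGGT, and Cbfb is the partner subunit that stabilises this binding without touching DNA itself. Runx2 is required for osteoblasts to form and promotes the hypertrophy of chondrocytes, Sp7 (osterix) acts after Runx2 in the same lineage, and Dlx5 is a homeodomain factor of the developing skeleton. Alkaline phosphatase (Alpl), osteopontin (Spp1) and bone sialoprotein (Ibsp) are products of cells that mineralise matrix. Bapx1 (Nkx3-2) is a homeodomain repressor of the sclerotome, and Sox9 is the central factor of the chondrocyte. Earlier work in culture placed Bapx1 between Sox9 and the repression of Runx2, which is why binding of both factors near these genes is of interest.

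Binding was measured by chromatin immunoprecipitation and sequencing (ChIP-Seq) in 6 libraries, 1 per condition. Bapx1 in the embryo was pulled down with an S-peptide antibody from vertebral columns of CD1 embryos at embryonic day 12.5 (E12.5), pooled from many embryos homozygous for an S-peptide and calmodulin binding peptide tag at the N-terminus of the endogenous protein. Its control was the same antibody on the vertebral column of wild type CD1 embryos of the same age. Bapx1 was also pulled down with a V5 antibody from NIH3T3 cells, a mouse fibroblast line, that overexpressed V5-tagged Bapx1. The labels describe the V5 control both as cells with empty pcDNA6 vector and as wild type 3T3. Sox9 was pulled down with a Sox9 antibody from untagged CD1 embryos at the same stage, with IgG as its control, and the tissue label of both reads vertebral column and limb. Spread between embryos or cultures cannot be estimated from single libraries, so differences are given as the ratio of ChIP to control tags, each scaled to its library, with an exact binomial (Clopper-Pearson) 95% interval. These intervals cover counting error only. A site was called higher if its ratio was at least 2 and the lower bound exceeded 1.

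The 4 libraries of the Bapx1 pairs held between 8901095 and 24853758 tags at distinct positions. Exons of Nkx3-2 held 1821 tags in the NIH3T3 Bapx1 library, a density 248 times that of the flanking 10 kb, and 381 tags in the V5 control, at 36.1 times, whereas the intron held 13 and 11 tags. The V5 control thus carried exon tags of Bapx1 that the labels do not account for, and the part this plays in the ratios was not tested. In the embryo libraries the same densities were 2 and 1.41 times the flanks.

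The sequences below carry the comparison that follows. The stretch at Runx2 spans the summits of both Bapx1 peak lists, the other embryo sites are shown because they are all that the embryo list holds at these genes, and the NIH3T3 sites at Runx1, Runx3, Cbfb and Dlx5 are those of smallest p at their genes. All are on the forward strand of mm9, read 5′ to 3′. Capitals mark TAAGTG or TGAGTG, the Bapx1 motif, on either strand (CACTTA or CACTCA in reverse), or TGTGGT or TGCGGT, the Runx motif, on either strand.
Runx2, both lists, chr17:44846907-44847077: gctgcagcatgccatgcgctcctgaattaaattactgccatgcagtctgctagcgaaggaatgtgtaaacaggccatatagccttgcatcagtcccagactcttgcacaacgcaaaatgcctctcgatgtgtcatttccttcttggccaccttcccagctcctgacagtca
Runx2, embryo, chr17:44755382-44755482: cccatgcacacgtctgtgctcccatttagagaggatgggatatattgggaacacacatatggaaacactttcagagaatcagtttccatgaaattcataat
Runx1, embryo, chr16:92654217-92654317: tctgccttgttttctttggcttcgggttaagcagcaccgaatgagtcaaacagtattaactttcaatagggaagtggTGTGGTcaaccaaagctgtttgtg
Runx3, embryo, chr4:134735893-134735993: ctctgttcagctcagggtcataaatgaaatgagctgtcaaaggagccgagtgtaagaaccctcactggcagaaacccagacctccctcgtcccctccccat
Runx1, NIH3T3, chr16:92639051-92639151: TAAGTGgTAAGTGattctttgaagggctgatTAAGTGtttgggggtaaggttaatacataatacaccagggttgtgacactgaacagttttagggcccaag
Runx3, NIH3T3, chr4:134777892-134777992: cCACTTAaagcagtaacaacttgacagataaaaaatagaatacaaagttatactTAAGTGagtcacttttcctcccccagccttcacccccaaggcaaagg
Cbfb, NIH3T3, chr8:107729758-107729858: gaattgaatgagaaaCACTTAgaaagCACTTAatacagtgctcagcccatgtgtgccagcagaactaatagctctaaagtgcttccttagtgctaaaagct
Dlx5, NIH3T3, chr6:6911987-6912087: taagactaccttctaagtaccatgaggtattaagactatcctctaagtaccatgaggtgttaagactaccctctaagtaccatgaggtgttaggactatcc

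The embryo Bapx1 peaks at these genes lay at the Runx genes. Of the 2815 embryo peaks, 4 had their summit in a locus of the 9 genes, with 2 at Runx2, 1 at Runx1 and 1 at Runx3, and none at Cbfb, Sp7, Alpl, Spp1, Ibsp or Dlx5. Their false discovery rates (FDR, from peaks called by the authors with ChIP and control exchanged) ran from 57% to 70.6%, beside a median of 61.1% over the embryo list. Thus 3 of the 9 loci held an embryo peak, beside 25.1% of all protein-coding genes, a share too near for the count to set these genes apart. In NIH3T3 cells, 33 of 23205 peaks lay in the loci and all 9 loci held at least 1, beside 81.0% of all genes. The gene bodies had a median length of 47.3 kb against 15.5 kb over all genes, although Sp7, Spp1, Ibsp and Dlx5, at 4.28 to 12.3 kb, were shorter than that. Runx1 and Runx2 had the widest loci, at 425 and 519 kb, whereas the other loci ran from 204 kb to the 257 kb of Runx3. The part of locus width in where the peaks fell was not tested. Per Mb of locus there were 1.63 embryo peaks and 13.4 NIH3T3 peaks, against 1.06 and 8.74 over the genome. The genome includes stretches far from genes, so the 2 densities are not of like regions, and the embryo value rests on 4 peaks.

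**Figure D1:**
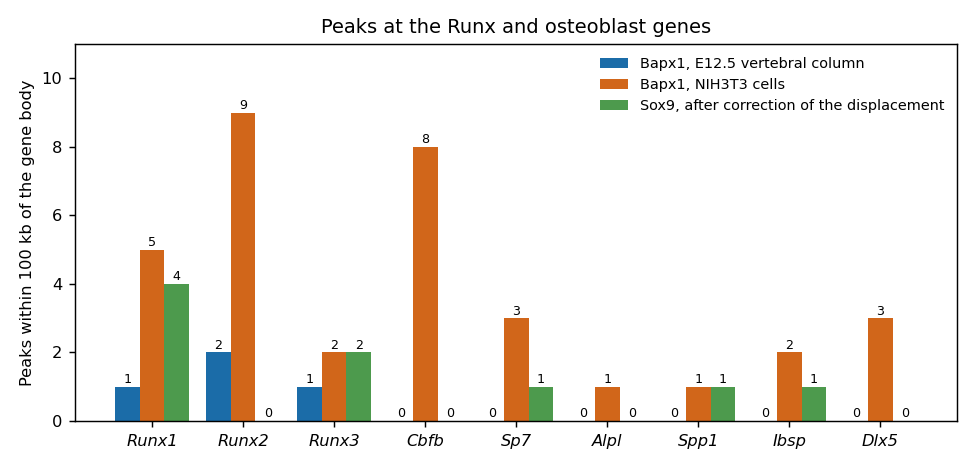
Number of peaks (vertical axis) with a summit within 100 kb of the gene body of each of the 9 genes (horizontal axis), for Bapx1 in the E12.5 vertebral column, Bapx1 in NIH3T3 cells and Sox9 after its positions were corrected. Runx2 with 9 and Cbfb with 8 held the most NIH3T3 peaks, embryo peaks stood at the 3 Runx genes, and the Sox9 peak of Spp1 and Ibsp is the same peak.

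Runx2 held the site found in both Bapx1 lists, and the share of all embryo peaks with such an overlap is not given here. The embryo summit at position 44847027 of chromosome 17 and the NIH3T3 summit at 44846957 were 70 bp apart, in a Runx2 intron that runs from 44795642 to 44854140, 24.6 kb and 24.7 kb downstream of the nearest coding start. Within 200 bp of the embryo summit the embryo libraries held 18 Bapx1 tags and 3 control tags, a ratio of 5 (1.46 to 26.5), and the NIH3T3 libraries also held 18 and 3, a ratio of 8.39 (2.45 to 44.5). Each summit was called by the authors on the libraries of its own pair, so its ratio there was above 1 by that choice, as at 100% of the summits of either list, and this holds for every site below. A site in a single list has, in the other pair, a value that the choice did not use. At this Runx2 site the authors called a peak on each pair, so neither ratio is free of the choice. Around the NIH3T3 summit the embryo tags were 19 against 3 and the NIH3T3 tags 19 against 3. Against the 3 tags of the V5 control in place of the wild type control, the embryo ratio there fell from 5.28 (1.55 to 27.8) to 3.17 (0.934 to 16.7) and was no longer called. The authors' values for the embryo peak were 15 tags and an FDR of 61.0%, and for the NIH3T3 peak 25 tags and an FDR of 0.07%. The forward tags of the embryo library had their median 112 bp before its summit and the reverse tags 46 bp after it, with 4 forward and 14 reverse tags. The 171 bases across both summits held neither the Bapx1 motif nor the Runx motif.

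The other embryo site of Runx2, at 44755432, lay in an intron from 44634193 to 44776613, 116 kb from the nearest coding start. It was the strongest of the embryo sites at these genes, with 35 tags in the authors' list, and 12.8% of the embryo list had a smaller p. It held 34 Bapx1 tags against 7 control tags in the embryo, a ratio of 4.05 (1.77 to 10.8), and 9 against 2 in NIH3T3 cells, a ratio of 6.3 (1.3 to 59.9), although the nearest NIH3T3 peak was 63337 bp away. This NIH3T3 call was lost with tags counted within 500 bp, where they were 12 against 7, a ratio of 2.4 (0.871 to 7.19), and against the wild type control, with a ratio of 2.99 (0.991 to 9.45). The remaining 7 NIH3T3 sites of the gene body and its flanks, and 1 site in the neighbouring gene Supt3h, had 2 to 6 embryo Bapx1 tags and 2 to 6 control tags, the same range. Among them was the site nearest to a Runx2 start, at 44875013 and 1416 bp from the start of the proximal promoter, with 14 Bapx1 tags against 5 in NIH3T3 cells, a ratio of 3.92 (1.33 to 13.9), and 6 against 2 in the embryo, a ratio of 2.5 (0.447 to 25.3). It held 1 Bapx1 motif, 14 bp before its summit.

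**Figure D2:**
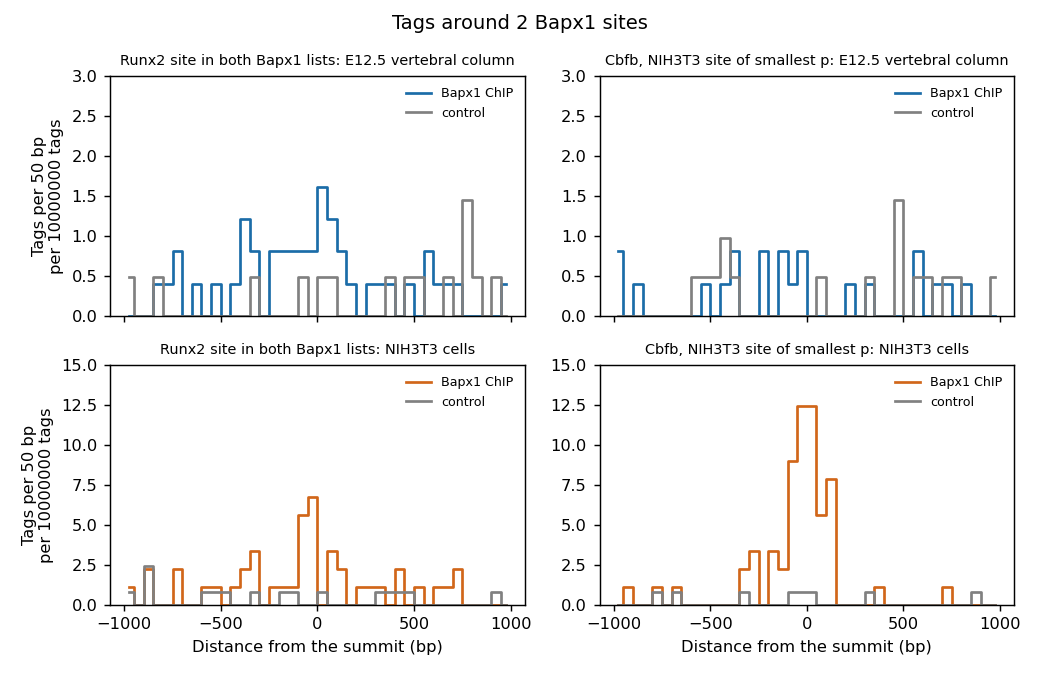
Tags per 50 bp, scaled to 10000000 tags of each library (vertical axis), against the distance from the summit in bp (horizontal axis), for the Runx2 site found in both Bapx1 lists and for the Cbfb site of smallest p in NIH3T3 cells, with Bapx1 in colour and control in grey. The upper and lower rows have different scales. At Runx2 both Bapx1 libraries stand above control in most bins near 0, on few tags, but at 25 bp the NIH3T3 Bapx1 value is 0 against 0.803 in control. At Cbfb only the NIH3T3 panel shows a peak.

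Runx1, the founding Runx gene of blood formation, had 1 embryo peak, at 92654267 of chromosome 16 in an intron from 92644591 to 92668952, 41.6 kb downstream of the proximal starts. It held 24 Bapx1 tags against 7 in the embryo, a ratio of 2.86 (1.19 to 7.85), and 4 against 3 in NIH3T3 cells, a ratio of 1.87 (0.316 to 12.7). The NIH3T3 pair thus gave no call there. This was the only one of the 4 embryo sites with the Runx motif within 50 bp of the summit, shown in capitals above, whereas 13.1% of all embryo summits and 8.19% of their flanks held it. In NIH3T3 cells Runx1 had 5 peaks. That of smallest p, at 92639101, held 25 tags against 8, a ratio of 4.37 (1.91 to 11.2), and had 3 copies of the Bapx1 motif, but the embryo tags there were 9 against 8, a ratio of 0.937 (0.321 to 2.79). The site nearest to a start, at 92824823 and 1433 bp downstream of the distal start, held 14 tags against 3 in NIH3T3 cells and 10 against 7 in the embryo, with ratios of 6.53 (1.82 to 35.4) and 1.19 (0.409 to 3.68).

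Runx3, which acts beside Runx2 in chondrocyte maturation, had 1 embryo peak, at 134735943 of chromosome 4, outside the gene and 27.5 kb from its nearest start. It held 23 Bapx1 tags against 4 in the embryo, a ratio of 4.79 (1.64 to 19.1), and 0 against 1 in NIH3T3 cells. A second place at Runx3 was called in the embryo pair without an embryo peak in the list. The NIH3T3 summit at 134777942, 69.5 kb from a Runx3 start and inside an intron of the neighbouring gene Clic4, whose start was nearer at 50787 bp, held 18 tags against 1 in NIH3T3 cells, a ratio of 25.2 (3.98 to 1049), and 15 against 1 in the embryo, a ratio of 12.5 (1.92 to 526). It had 2 copies of the Bapx1 motif, of which 1 was centred 6 bp from the summit. The other NIH3T3 site, at 134744892, held 19 tags against 2 in NIH3T3 cells and 9 against 5 in the embryo, and the embryo ratio of 1.5 (0.451 to 5.7) was not called.

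**Figure D3:**
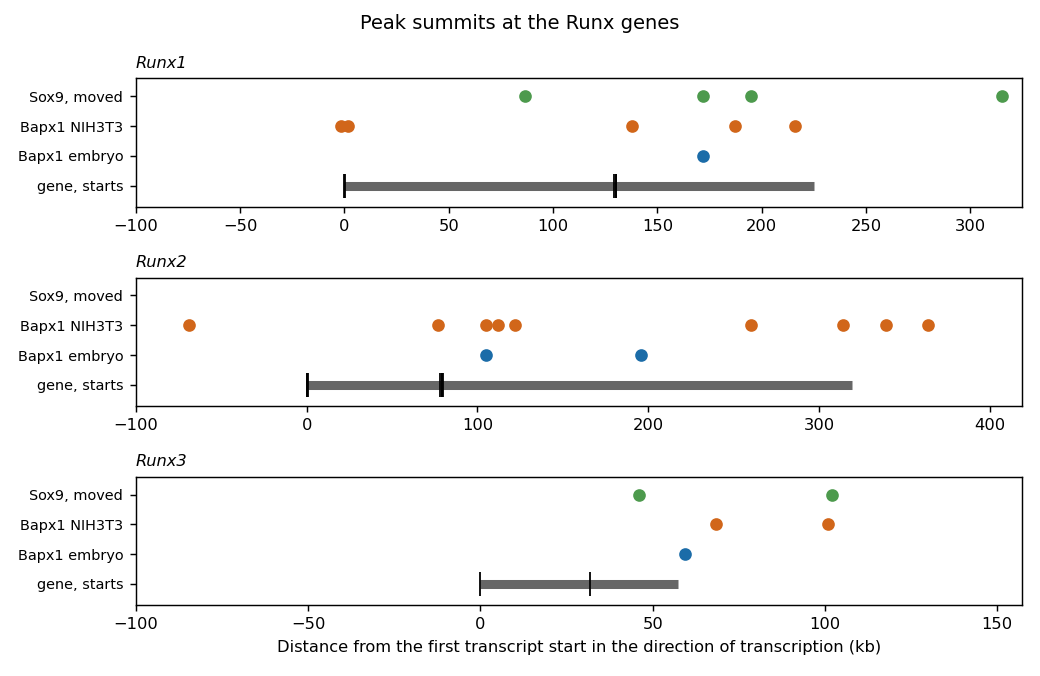
Summits of embryo Bapx1, NIH3T3 Bapx1 and moved Sox9 peaks at Runx1, Runx2 and Runx3 (rows), by distance in kb from the first coding transcript start in the direction of transcription (horizontal axis), with the gene as a grey bar and coding starts as black ticks. A Sox9 point stands over the embryo Bapx1 point of Runx1 and beside a NIH3T3 point of Runx3, and Runx2 has Bapx1 points in both lists at 1 place and no Sox9 point.

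Cbfb had 8 NIH3T3 peaks, the highest density of the 9 loci at 32.3 per Mb, and no embryo peak. Its site at 107729808 of chromosome 8, in the last intron, from 107726479 to 107739803, was among the strongest in the NIH3T3 list, since 0.526% of the list had a smaller p. It held 47 tags against 3, a ratio of 21.9 (7.06 to 110), with 24 forward and 23 reverse tags, and 2 copies of the Bapx1 motif. In the embryo it held 5 tags against 1, a ratio of 4.16 (0.466 to 197), which was not called. The site nearest to the Cbfb start, at 107702328 and 7754 bp downstream, held 10 against 3 in NIH3T3 cells and 5 against 4 in the embryo. Only 2 of the 8 sites had the Cbfb start as their nearest coding start, the other sites being closer to genes downstream of it.

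Dlx5 had 3 NIH3T3 peaks, and that at 6912037 of chromosome 6 had the smallest p of all sites at these genes, with 79 tags in the authors' list and 0.284% of the list at a smaller p. It lay 80 kb upstream of Dlx5 in an intron of Acn9, whose start was 6033 bp away. Within 200 bp it held 29 tags against 2 in NIH3T3 cells, a ratio of 20.3 (5.13 to 175), but 3 against 5 in the embryo, a ratio of 0.5 (0.0776 to 2.57). The 101 bases shown are a tandem repeat, in which 91.5% of bases equalled the base 30 bp further on, against a median of 22.5% over spacings from 5 to 40 bp, and they hold no Bapx1 motif. The part of the repeat in the tag counts was not tested. The site nearest to the Dlx5 start, at 6799689 and 32.4 kb downstream, held 11 against 3 in NIH3T3 cells and 8 against 2 in the embryo, a ratio of 3.33 (0.665 to 32.2), with 2 copies of the motif. Its nearest start was that of Dlx6, 13645 bp away, and none of the 3 sites had Dlx5 as the gene of the nearest start.

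Sp7 had 3 NIH3T3 peaks, none of which had Sp7 as the gene of the nearest start. The one of smallest p and also nearest to Sp7, at 102236106 of chromosome 15, was 38.8 kb upstream of Sp7 but 468 bp from a start of Sp1, a ubiquitous factor of the same family. It held 10 tags against 1 in NIH3T3 cells, a ratio of 14 (1.99 to 607), and 12 against 15 in the embryo, a ratio of 0.666 (0.285 to 1.52). Alpl had a single NIH3T3 peak, at 137339845 of chromosome 4 and 1441 bp from one of its starts, with 13 tags against 3, a ratio of 6.06 (1.67 to 33.2), and 4 against 4 in the embryo. Its NIH3T3 Bapx1 tags were uneven between strands, with 11 forward and 2 reverse. The V5 control held fewer tags over the Alpl locus than the embryo control, at a scaled ratio of 0.763 (0.713 to 0.816), whereas the other loci lay between 0.864 and 1.18 and 5% of all genes lay at or below 0.739.

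Spp1 and Ibsp are neighbours on chromosome 5 and shared the NIH3T3 site at 104785947, which is the only one of Spp1. It lay between the genes, 78.2 kb upstream of Spp1 and 57.8 kb downstream of the Ibsp start, and the nearest start belonged to Mepe. It held 14 tags against 4 in NIH3T3 cells, a ratio of 4.9 (1.54 to 20.4), 5 against 3 in the embryo, a ratio of 1.39 (0.27 to 8.94), and 1 Bapx1 motif. The second site of Ibsp, at 104694652 and 33.5 kb upstream of its start, held 9 against 2 in NIH3T3 cells and 6 against 2 in the embryo, with ratios of 6.3 (1.3 to 59.9) and 2.5 (0.447 to 25.3). Neither site was called in the embryo.

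Of the 33 NIH3T3 sites in the 9 loci, 18 had their nearest coding start in 1 of the 9 genes. Over all 33, 2 were called in the embryo pair, or 6.06%, beside 2.15% of all NIH3T3 summits, a count too small to set them apart. The 2 were the Runx2 site of both lists, where the authors also called an embryo peak, and the Runx3 site inside Clic4. The median embryo ratio was 1.19 at the 33 sites and 1.11 over all NIH3T3 summits, and 19 of the 33 ratios were above 1, beside 55.1% of all NIH3T3 summits. Single ratios ran from 0.278 to 12.5, apart from 1 site at Sp7 with 4 tags against 0. In the other direction, 2 of the 4 embryo sites were called in the NIH3T3 pair, both at Runx2, beside 10.6% of all embryo summits. Here too the count is too small to set them apart. At the site at 44847027 the authors had also called a NIH3T3 peak on this pair. At the site at 44755432 the call was lost within 500 bp and against the wild type control. The embryo calls and the NIH3T3 calls share the Runx2 site, so they are not separate observations. Embryo tags were few, from 1 to 19 at the 33 sites, and neither a ratio of 4.58 nor the 4 tags against 0 at Sp7 were called.

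**Figure D4:**
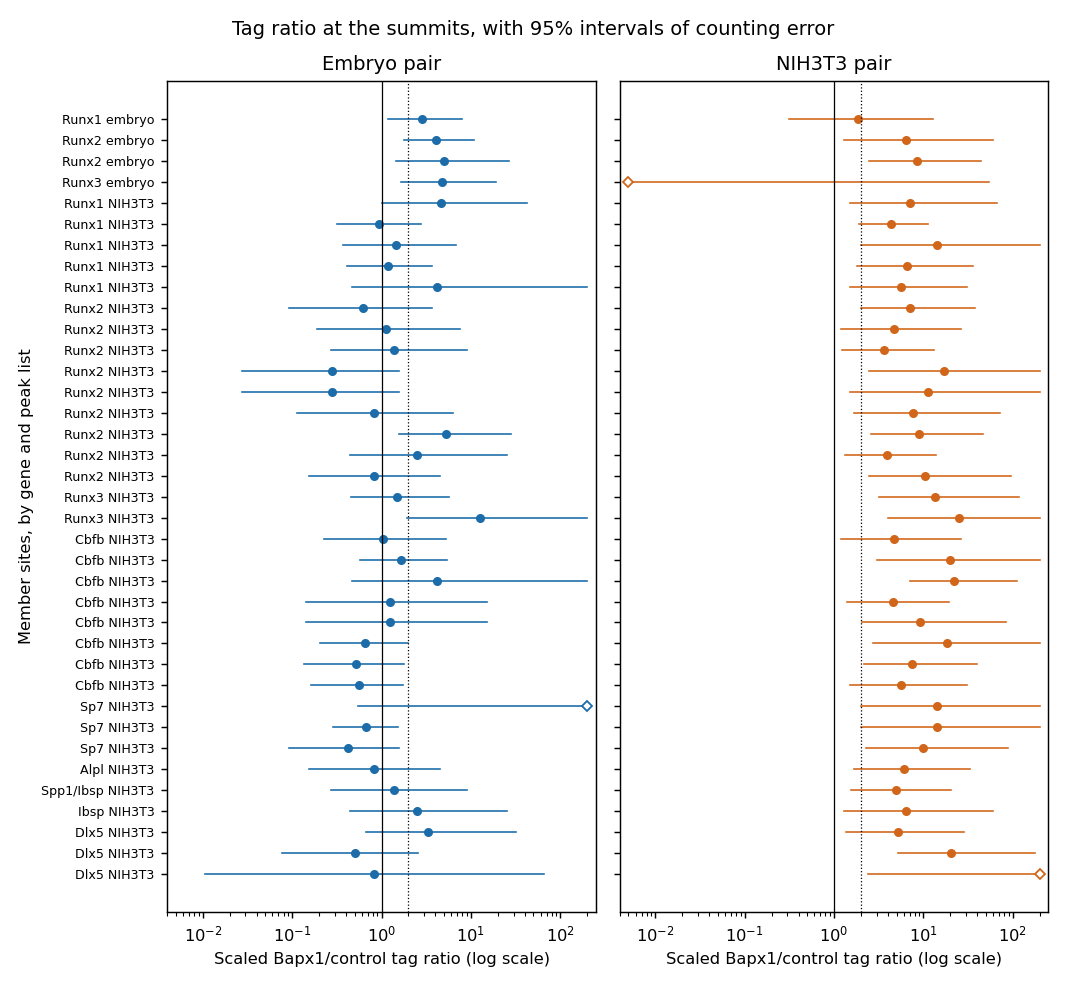
Scaled ratio of Bapx1 to control tags within 200 bp of each of 37 summits (rows, by gene and peak list) in the embryo pair and in the NIH3T3 pair, on a log axis, with 95% intervals of counting error, solid lines at 1 and dotted lines at 2. Intervals are cut at 200 and at its inverse, open diamonds at either edge mark a ratio with 0 tags in 1 library, and in the embryo panel the intervals of 2 NIH3T3 sites, at Runx2 and Runx3, stand above 1.

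The Bapx1 motif was found within 50 bp of 15 of the 33 NIH3T3 summits, a share of 45.5% (28.1 to 63.6), whereas 64.4% of all NIH3T3 summits and 10.7% of their flanks held it. Within 100 bp it was found at 20 of the 33, a share of 60.6% (42.1 to 77.1), beside 72.8% of all NIH3T3 summits and 20.6% of their flanks. The share at these genes was above that of the flanks in both windows, whereas its interval held the share of the whole list within 100 bp but not within 50 bp. That interval treats the 33 sites as independent, although 9 lie at Runx2 and 8 at Cbfb, so it does not set these genes apart from the list. All 4 embryo summits lacked the Bapx1 motif, while 31.3% of all embryo summits and 10.5% of their flanks held it, and 0 of 4 allows a share of up to 60.2%. None of the 33 NIH3T3 summits had the Runx motif, which was at 6.78% of all NIH3T3 summits and 7.94% of their flanks. In the RefSeq promoters (GRCm38.p6, from 250 bases before to 50 after a start) 11 entries of 7 of the genes were matched, Sp7 and Dlx5 not being among them. Of the 11, 4 held the Runx motif, beside 22.4% of all promoters, and 2 held the Bapx1 motif, beside 23.9%. The 4 were 1 each of Runx1, Runx2, Runx3 and Spp1.

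At the transcript starts the embryo gave no call. The 9 genes have 30 coding starts, and within 500 bp of them 0 were called higher in the embryo pair, beside 2.98% of all 45961 coding starts, while 5 were called in the NIH3T3 pair, beside 13.7%. The 5 lay in 3 promoters, since neighbouring starts share tags, and neither count sets these genes apart from all starts. None of the 30 was called within 200 bp (0 starts, beside 3219 of all 45961), and 3 were called with all tags as deposited or with tags moved by 100 bp. At the distal promoter of Runx2 the NIH3T3 tags were 15 against 4 at the start at 44951576, a ratio of 5.25 (1.67 to 21.7), and the embryo tags 21 against 15, a ratio of 1.17 (0.573 to 2.43). At the proximal Runx1 start at 92697573 they were 12 against 5 in NIH3T3 cells, a ratio of 3.36 (1.1 to 12.2), and 32 against 17 in the embryo, a ratio of 1.57 (0.845 to 3.01). At the Spp1 start at 104864137 they were 10 against 4, a ratio of 3.5 (1.01 to 15.3), and 16 against 12, a ratio of 1.11 (0.493 to 2.57). At all 3 promoters the embryo intervals spanned 1.

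Ratios above 1 at starts were common in NIH3T3 cells, with a median of 1.23 over all starts and 1.32 over the 30, against 1.03 and 1.11 in the embryo. Tags at starts stood at 1.24 times the surrounding 2 to 10 kb in the V5 control and at 1.44 times in the NIH3T3 Bapx1 library (medians over starts). In the embryo these medians were 1.45 for Bapx1 and 1.42 for the wild type control, so the V5 control was the lowest of the 4 libraries. At the 5 starts called in NIH3T3 cells the V5 control lay at 0.789 to 0.927 times its surroundings. The NIH3T3 Bapx1 library lay at 2.28 to 2.89 times there. The part of this in the calls was not tested. In the lower direction, ratios at or under 1/2 with an upper bound below 1 were found at 1 of the 30 starts in the NIH3T3 pair, beside 2.03% of all starts, and at none in the embryo pair, beside 1.76%. It was the start of Dlx5, with 1 tag against 13, a ratio of 0.108 (0.00253 to 0.717), whereas the embryo held 16 against 18. Close to this limit was the Runx2 start at 44872315 in the embryo pair, with 16 tags against 26, a ratio of 0.513 (0.257 to 0.992).

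**Figure D5:**
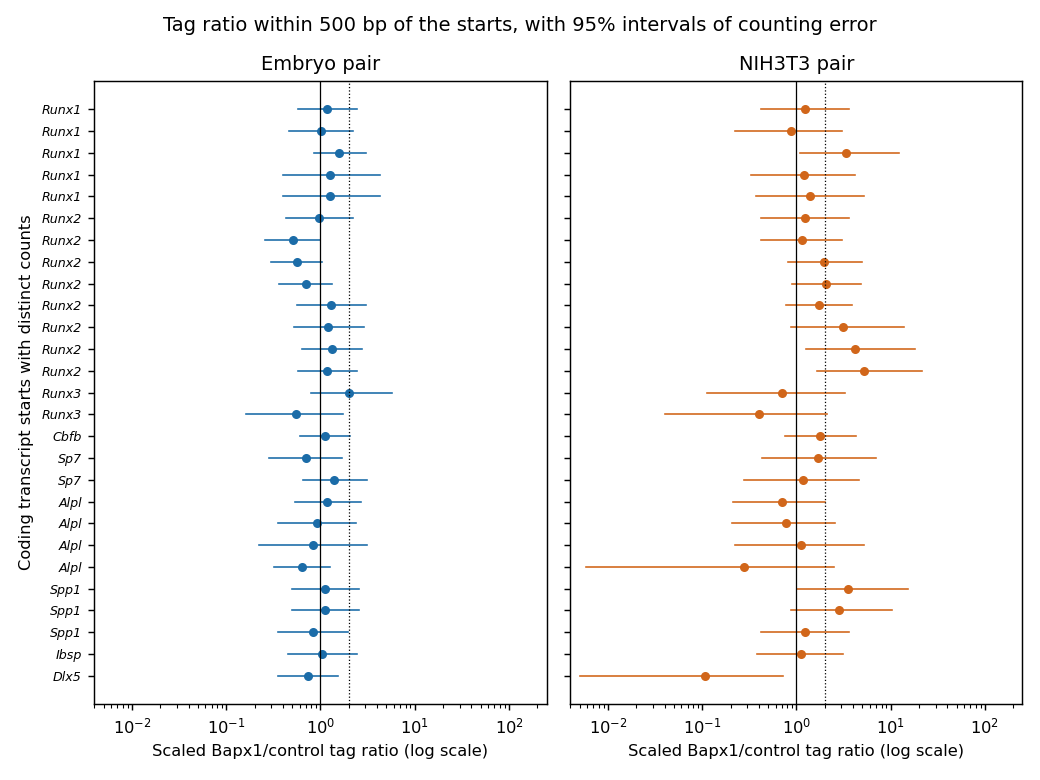
Scaled ratio of Bapx1 to control tags within 500 bp of the coding starts of the 9 genes (rows, the 27 starts with distinct counts) in both pairs, on a log axis, with 95% intervals of counting error, solid lines at 1 and dotted lines at 2. Nearly all embryo intervals span 1, and in NIH3T3 cells the intervals of starts at Runx1, Runx2 and Spp1 stand above 1 and that of Dlx5 below, where the lower ends of intervals are cut at the edge.

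Over the whole loci the ratio of Bapx1 to control differed more between genes in NIH3T3 cells than in the embryo. The scaled ratio lay between 0.969 and 1.06 in the embryo and between 0.918 at Runx3 and 1.26 at Spp1 in NIH3T3 cells, whereas all genes had 5th and 95th percentiles of 0.925 and 1.06 in the embryo and 0.821 and 1.24 in NIH3T3 cells. The Spp1 locus, with 1045 tags against 1163 in NIH3T3 cells, thus lay above this range while it held a single peak, and its interval was 1.16 to 1.37. The intervals of Runx2, Cbfb, Sp7 and Ibsp also lay above 1 in NIH3T3 cells, with ratios from 1.12 to 1.18, and that of Runx3 below 1, although these 5 ratios were within the range of all genes. In the embryo the interval of Runx2 lay above 1 as well, with a ratio of 1.05 (1.01 to 1.09) within that range. The embryo ratio of Ibsp was 1.06 (1 to 1.13), at the 95th percentile of all genes.

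The Sox9 peaks changed their genes once their positions were corrected. Positions of the Sox9 and IgG libraries do not match mm9, since 4969 and 4788 of their tags lay past the ends of chromosomes, against at most 4 in a library of the Bapx1 pairs. The displacement was measured from the best match of tags, for each locus in a window of 500 kb centred on it and for each Sox9 peak in the window of 500 kb of a fixed grid that held it. For the loci it ranged from 0 at Dlx5 and 2400 bp at Sp7 to 673900 bp at Runx2 and to -365250 bp at Cbfb, and at every locus the best match exceeded the next by at least 1.62 times. After correction the Sox9 motif (A or T at the first, second and sixth letters around CAA and a last G) was within 50 bp of 34.5% of the 3304 Sox9 summits that moved by more than 1 kb, against 14.9% at the deposited positions and 14% in the flanks of the moved ones. At the deposited positions 14 Sox9 peaks fell in the 9 loci, with 5 at Runx2. After correction there were 8, of which 4 lay at Runx1, 2 at Runx3, 1 at Sp7 and 1 between Ibsp and Spp1, and Runx2, Cbfb, Alpl and Dlx5 held none. Since Ibsp and Spp1 share theirs, 5 of the 9 loci held a corrected Sox9 peak, beside 26.4% of all genes. Of the 8 moved peaks, 1 lay within 500 bp of an embryo Bapx1 summit, beside 6.84% of all 3449 moved Sox9 peaks, and 1 within 500 bp of a NIH3T3 summit, beside 2.35%. Around the 8 moved summits none (0 of 8) was called for Bapx1 in the embryo pair, beside 12.4% of all, and 2 in the NIH3T3 pair, beside 4.06%. These counts are too small to set the genes apart.

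At Runx1 a moved Sox9 peak lay near the embryo Bapx1 site. Its deposited summit was 92542846, with 28 Sox9 tags against 1 IgG tag within 200 bp, a ratio of 29.2 (4.83 to 1194), and the authors' values were 43 tags and an FDR of 5.96%. The displacement was 111750 bp from the window of 500 kb and 111400 bp from one of 200 kb, which put it 329 bp or 21 bp from the embryo Bapx1 summit in the Runx1 intron. Within 200 bp of the former place the embryo Bapx1 pair held 8 tags against 5, a ratio of 1.33 (0.384 to 5.18) and no call. Around the latter it held 23 against 5, a ratio of 3.83 (1.42 to 12.9), so the call depends on the window. A displacement of 111400 bp was also found in the window centred on Runx1 and in the neighbouring window of the grid. The strongest Sox9 peak at Runx1 by p had its deposited summit at 92628152, 42.3 kb upstream of the proximal starts after correction, with 36 tags against 2, a ratio of 18.8 (4.83 to 161), and an FDR of 1.64%. Its window of 200 kb had no clear displacement, so its place rests on the window of 500 kb alone. The embryo Bapx1 pair held 3 tags against 3 there.

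The other Sox9 peaks of Runx1 were weaker in the authors' list. The one with its deposited summit at 92520007 held 26 Sox9 tags against 7, a ratio of 3.87 (1.64 to 10.6), and had an FDR of 28.7%. It lay 7.34 kb from the nearest NIH3T3 Bapx1 summit. The one at 92399949 held 13 against 1, lay 185 kb from the nearest start beyond the end of the gene, and had an FDR of 100%. At Runx3, the peak deposited at 134494311 came to lie 219 bp from the NIH3T3 Bapx1 site inside Clic4 that was also called in the embryo, with 17 Sox9 tags against 2, a ratio of 8.86 (2.1 to 79.1), and an FDR of 62.6%. At that moved place the embryo Bapx1 pair held 12 tags against 3, a ratio of 3.33 (0.899 to 18.4) that was not called, and the NIH3T3 pair 9 against 1, a ratio of 12.6 (1.74 to 552) that was. The second peak of Runx3, deposited at 134438677, lay in the gene body with 20 tags against 9, a ratio of 2.32 (1.01 to 5.78), and an FDR of 100%. The embryo Bapx1 tags there were 15 against 17.

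Among the osteoblast genes proper, Sp7 had a Sox9 peak 10.2 kb from its nearest start, past the end of the gene, deposited at 102184171 with 31 tags against 6, a ratio of 5.39 (2.21 to 15.8), and an FDR of 8.47%. The embryo Bapx1 tags there were 13 against 6, a ratio of 1.8 (0.64 to 5.79). The peak between Ibsp and Spp1, deposited at 104648380, lay 27 kb upstream of Spp1 with 25 Sox9 tags and 0 IgG tags, and an FDR of 5.97%. Embryo Bapx1 tags were 3 against 2 and NIH3T3 tags 5 against 0. Neither place was called for Bapx1 in the embryo, whereas the place of 5 against 0 was called in NIH3T3 cells, with a lower bound of 1.28.

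Of 34 further genes of the pathway, 33 had a NIH3T3 Bapx1 peak within 100 kb, 12 an embryo Bapx1 peak and 13 a corrected Sox9 peak, beside the 81.0%, 25.1% and 26.4% given for all genes. Embryo peaks lay at 9 of 16 partners and inhibitors of Runx proteins, namely the corepressors Tle1, Tle2, Tle3 and Tle4, the histone deacetylase Hdac4, the Notch effector Hes1, the ubiquitin ligase Wwp1, and Runx1t1 and Cbfa2t3 of the ETO corepressor family. These 16 were long genes, with a median of 86.6 kb against the 15.5 kb over all genes, so that their loci were wider, and the part of this in the count was not tested. The FDR of their embryo peaks was 17.8% at Runx1t1 and ran from 46.5% to 68.8% at the others. The Wwp1 peak held 26 Bapx1 tags against 15 control tags, too few for a scaled ratio of 2. A Tle4 peak, with 14 against 6, also fell short of it, and an Hdac4 peak, with 20 against 8, was little above it. The gene lists were chosen with earlier results of these data known. Embryo peaks also lay at 2 of 11 matrix and mineral genes (Col1a2 and Phospho1), at none of 4 transcription factors and at 1 of 3 genes of osteoclast coupling (Csf1, the growth factor of the macrophage lineage). The embryo peak of Runx1t1, 3402 bp from a start, held 60 Bapx1 tags against 4, more than any embryo site of the 9 genes, and 3 against 0 in NIH3T3 cells. Csf1 had the most NIH3T3 peaks, 13, followed by Wwp1 with 9 and by Smurf2 and Cbfa2t3 with 8 each. Its embryo peak 103 bp from a start held 26 tags against 8 in the embryo and 12 against 5 in NIH3T3 cells, and 4 of its 6 starts were called in each pair. Of the 98 coding starts of the 34 genes, these 4 were called in the embryo and 13 in NIH3T3 cells, counts near the 2.98% and 13.7% of all starts.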

How the data were processed

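The members and gene lists were chosen with earlier results of these data known. Per the authors' methods, Illumina Genome Analyzer reads were mapped to mm9, keeping unique reads with few mismatches, but the positions of the Sox9 and IgG libraries do not match that build, and the deposited tag positions carry no normalization. The authors called peaks with MACS against the control library at a p of 1e-05, and deposited per peak the count of ChIP tags, a score (−log10 of p, times 10), a ratio of fold enrichment over local background, and the FDR in percent. Here tags were recounted with numpy 2.4.6 at 1 tag per position and strand, within 200 bp of summits and 500 bp of starts (GENCODE on NCBIM37). Sox9 and IgG tags were matched to the embryo Bapx1 pair at a resolution of 50 bp (tags beyond 3 per bin ignored), allowing displacements up to 4000 kb. A window was clear if its best match exceeded the next by 1.5 times, and 273 of 3722 Sox9 peaks in other windows were left out, none of them at these loci. Shift detection, intervals and motif search were tested on simulated data. No p-values between conditions were computed. Named sites are every embryo and Sox9 peak, and per gene the NIH3T3 peak of smallest p and the one nearest to a start. Alternatives were other flanks, thresholds, windows, scalings, controls and displacements. 1 gene of the pathway list is not reported here.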

Additional observations from a re-analysis of the deposited data

How the results depend on the processing

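Of 53 alternatives to 11 counts, 37 stayed within 1.5 times the reported count. With 200 kb on either side the loci held 55 NIH3T3 peaks, 7 embryo peaks and 13 corrected Sox9 peaks. With 50 kb on either side 8 of the 9 loci held a NIH3T3 peak. At a p of 1e-10 there were 9 NIH3T3 peaks, in 6 loci, and 1 embryo peak, in 1 locus. At an FDR of at most 5% no embryo peak (0 peaks, 0 loci) was left, as in the whole embryo list, whose lowest FDR was 11.8%. At that limit 1 Sox9 peak was left, beside 18% of the Sox9 list, and all 33 NIH3T3 peaks, beside 97.7%. Without correction the loci held 14 Sox9 peaks. With displacements from windows of 200 kb there were 7, the Runx1 peak of smallest p being left out. With the control of the other pair, 1 NIH3T3 site was called in the embryo (the Runx3 site inside Clic4, while the Runx2 site of both lists lost its embryo call) and 1 embryo site in NIH3T3 cells (the Runx2 site of both lists), and the latter was also 1 with tags counted within 500 bp. The 5 called starts in NIH3T3 cells became 3 with all tags as deposited, 3 with tags moved by 100 bp, and 0 within 200 bp. No paired analysis was possible because each condition has 1 library. The cause of these changes was not tested. Embryo Bapx1 tags at the NIH3T3 sites were few, from 1 to 19 per site, and the intervals of the embryo ratios there are wide.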
